A study of Mus musculus with 2 samples.

Results

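The walls of brain vessels are built by 3 cell classes, and 44 genes that mark them were followed here in mouse hippocampus. They comprised 23 endothelial, 11 mural and 10 perivascular fibroblast genes out of 55536 annotated genes. Members were taken by gene symbol, and each symbol belonged to a single gene identifier. The tissue was hippocampus of males aged 2 months of the strain B6CASTF1/J, an F1 hybrid between C57BL/6J and CAST/EiJ, and the assay was total RNA sequencing. Both libraries, biological replicates 2 and 1, formed 1 group with no treatment and no engineered allele, each made from 300 ng of RNA with ERCC spike-ins. The donor label is the same for both, so that they are separate animals rests on their replicate numbers, and the tissue label speaks of a hippocampal layer without naming it. Their totals over all entries, spike-ins included, were 31303010 expected counts in replicate 2 and 31422827 in replicate 1, expected counts being reads apportioned to genes by estimation. Counts differed by more than sampling noise, with a chi-square of 4.09 per degree of freedom over genes, so the libraries were kept as 2 samples. With no second group there was nothing to test, and a difference between the libraries has no replicate check of its own.

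Endothelial cells line the vessel and, in brain, form the blood-brain barrier by sealing their junctions and by importing nutrients and exporting foreign compounds through dedicated carriers. Mural cells wrap around them: pericytes lie on capillaries inside the basement membrane, and smooth muscle cells ring the arterioles and contract. Perivascular fibroblasts sit outside larger vessels and in the meninges and lay down fibrillar collagen and small proteoglycans. In bulk tissue, fewer cells of a type and less RNA per cell cannot be told apart.

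Sequences are shown for members at which the annotation or the transcript shares bear on how a level is read. Egfl7 carries the microRNA gene Mir126a in an intron on its own strand, and the mature product is given with its seed, bases 2 to 8, in capitals (RefSeq, GRCm38.p6, chr2:26591402-26591423, plus strand).
mmu-miR-126a-3p: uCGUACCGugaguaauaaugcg
Col4a1 and Col4a2 are transcribed in opposite directions from a shared start, and the 22 capitals lie inside both annotated genes (GRCm38.p6, chr8:11312801-11312830, plus strand).
Col4a1 and Col4a2 start: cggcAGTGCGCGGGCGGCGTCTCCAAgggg
The receptor gene Flt1 has a full-length transcript, Flt1-202, and a transcript of its soluble form, Flt1-203, which part after a shared exon of which 30 bases are in lower case. The capitals are the 30 bases that follow (mm10, GENCODE M21, minus strand, chr5:147634494-147639254 with the intron for Flt1-202 and chr5:147639195-147639254 for Flt1-203).
Flt1-202: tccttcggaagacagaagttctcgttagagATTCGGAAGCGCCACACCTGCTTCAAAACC
Flt1-203: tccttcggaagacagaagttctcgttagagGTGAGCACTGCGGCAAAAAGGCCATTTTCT
In Slco1c1, transcript Slco1c1-202 starts an exon 41 bases later than the protein-coding Slco1c1-201. Those 41 bases are in capitals in the first line, at chr6:141559741-141559781 on the plus strand. The capitals of the second line are the annotated stop codon of Slco1c1-202, which ends 19 bases after the junction.
Slco1c1-201: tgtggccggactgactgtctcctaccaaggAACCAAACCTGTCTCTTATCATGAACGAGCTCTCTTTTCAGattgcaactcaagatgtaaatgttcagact
Slco1c1-202: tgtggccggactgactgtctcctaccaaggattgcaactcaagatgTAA
Bsg-201 holds an exon of 348 bases, at chr10:79708697-79709044 on the plus strand, that Bsg-205 skips. Its first 60 bases are in capitals after 30 bases that both transcripts share.
Bsg-201: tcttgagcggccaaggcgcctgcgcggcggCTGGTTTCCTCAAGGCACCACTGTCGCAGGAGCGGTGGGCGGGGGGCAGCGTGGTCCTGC
Bsg-205: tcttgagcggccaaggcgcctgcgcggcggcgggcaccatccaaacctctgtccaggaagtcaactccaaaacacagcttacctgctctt

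Nearly all of the 44 genes were measured above the detection level, taken as at least 1 TPM (a level per transcript length that is scaled to the same total in each library) in both libraries. Of the members, 42 of 44 were detected, beside 57.7% of the 22015 nuclear protein-coding genes. The same level was passed by 2 of 7 genes typical of other organs, with means up to 1.865 TPM. By class these were 23 of 23 endothelial, 10 of 11 mural and 9 of 10 perivascular fibroblast genes. The members under the level in both libraries were Cnn1, a smooth muscle actin-binding protein, and Slc22a6, an organic anion carrier of meningeal fibroblasts. Most members were nonetheless below the middle of the detected genes: 31 had a mean under the median of the 12697 detected nuclear protein-coding genes, 14.7 TPM, and 13 were at or above it. Those 13 comprised 8 endothelial, 2 mural and 3 perivascular fibroblast genes.

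The class medians of the members' mean TPM were 6.98 for endothelial, 3.18 for mural and 3.91 for perivascular fibroblast genes. Since members are not replicates and each class holds the genes chosen for it, these medians are set side by side without a test. The summed TPM of the endothelial genes was 444.67 in replicate 2 and 438.15 in replicate 1. It was 64.6 in replicate 2 and 65.2 in replicate 1 for the mural genes, and 74.35 and 79.6 for the fibroblast genes. A single gene, Bsg, held 50.1% ± 0.102 of the endothelial sum (SD, n = 2). Without it the endothelial sum was 3.43 times the mural sum in replicate 2 and 3.36 times in replicate 1, against 6.88 and 6.72 times with it. That endothelial sum covers 22 genes and the mural sum 11, so list length is part of the ratio. Vtn and Rgs5 together held 62.4% ± 1.95 of the mural sum. Col4a1, Col4a2 and Dcn held 76.0% ± 2.53 of the fibroblast sum (SD, n = 2 for both), and without these 3 genes the other 7 summed to 19.2 TPM in replicate 2 and 17.7 in replicate 1. In this quantification the fibroblast values depended on the basement membrane collagens: without Col4a1 and Col4a2 their median was 2.945 TPM and their summed TPM 37.6 in replicate 2 and 36.6 in replicate 1, below the mural values. That fibroblast sum covers 8 genes, against 11 mural genes.

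**Figure D1:**
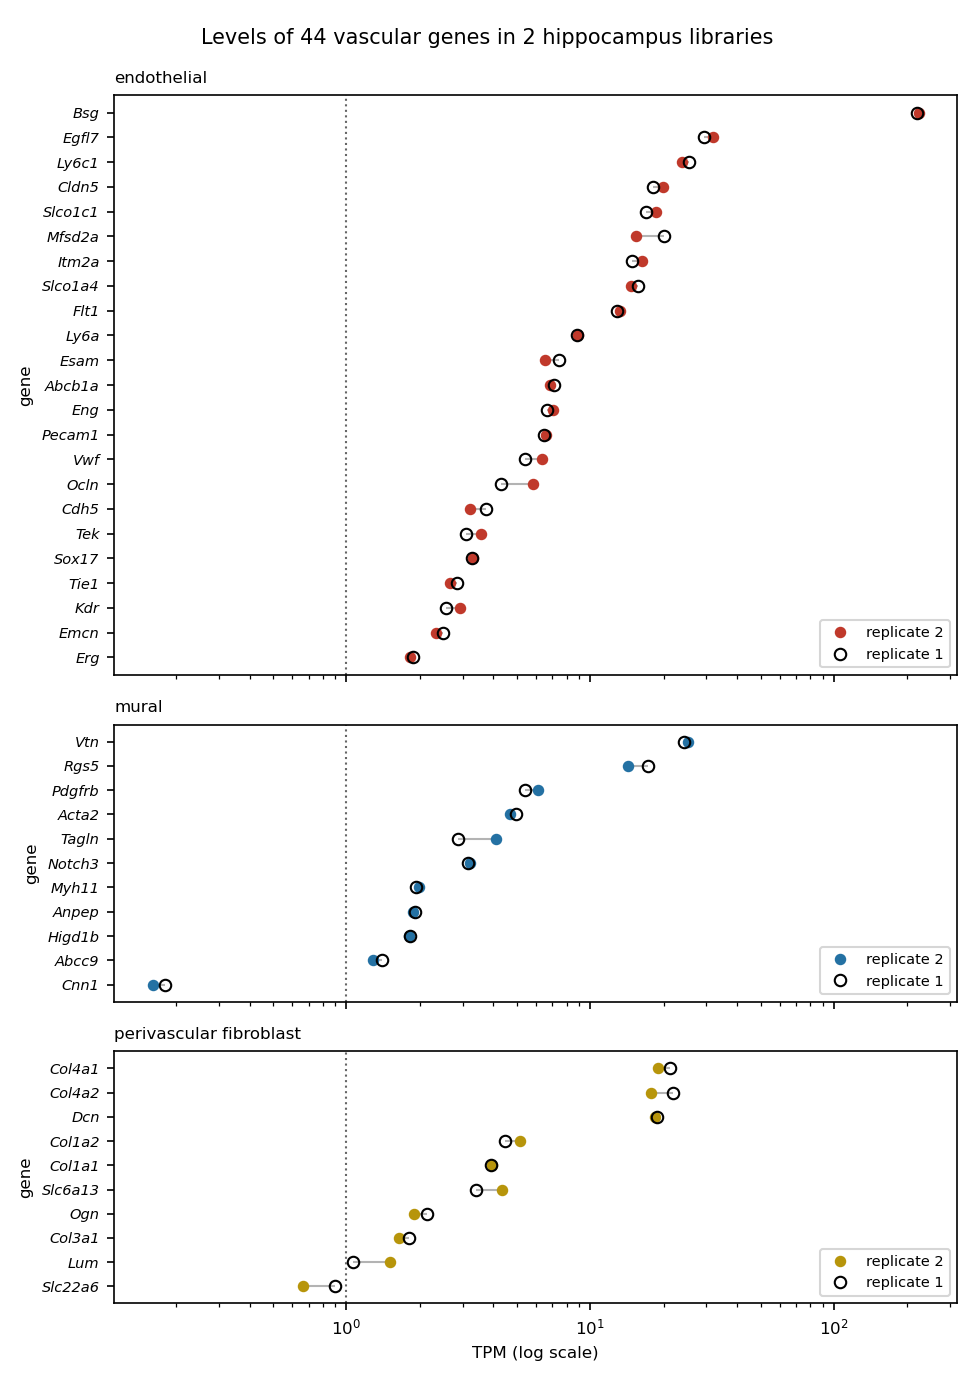
TPM of the 44 genes on a log axis, 1 row per gene, in panels by class; filled points are replicate 2, open points replicate 1, and the dotted line marks 1 TPM. Bsg stands apart at 223 and 219 TPM, Cnn1 and Slc22a6 lie left of the line in both libraries, and the points of most genes nearly coincide.

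The junction genes covered a range from Cldn5, the main claudin that seals the barrier, to the adherens junction cadherin Cdh5. Cldn5 was at 19.95 TPM in replicate 2 and 18.0 in replicate 1, from 607 and 534 expected counts, and its mean was above 58.5% of detected nuclear protein-coding genes. Esam, an immunoglobulin-type adhesion molecule of endothelial contacts, was at 6.53 and 7.44 TPM, replicate 2 given first here and in what follows. Its counts were 240 in both libraries, while the estimated effective length was 1591 bases in replicate 2 and 1434 bases in replicate 1. Pecam1, an adhesion molecule of endothelial cell contacts, had 6.60 and 6.46 TPM. Ocln, the tight junction protein occludin, had 5.80 TPM from 376 counts in replicate 2 and 4.30 TPM from 269 counts in replicate 1, so it was higher in replicate 2. Cdh5, or VE-cadherin, was at 3.21 and 3.72 TPM, and its counts of 289 and 302 lay closer together.

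Receptors of vascular growth factors were led by Flt1, the VEGF receptor with a soluble form. Flt1 had 13.2 TPM in replicate 2 and 12.9 in replicate 1, against 2.91 and 2.56 TPM for Kdr, the main signalling VEGF receptor. Flt1 was therefore 4.54 times Kdr in replicate 2 and 5.04 times in replicate 1, and 4.30 and 4.87 times in the second quantification, which was made directly from the reads. Eng, a co-receptor of the TGF-beta family, was at 7.03 and 6.67 TPM. Tek, the angiopoietin receptor, was at 3.58 and 3.09 TPM, and its partner Tie1 at 2.66 and 2.84 TPM. The order of Tek and Tie1 depended on the quantification in replicate 1, where Tek was 1.09 times Tie1 in the gene quantification and 0.941 times in the second.

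The carrier genes included the highest member by far. Bsg encodes basigin, a membrane glycoprotein that chaperones monocarboxylate carriers and is also made by neurons and glia. It was at 223 TPM in replicate 2 and 219 in replicate 1, above 98.2% of detected nuclear protein-coding genes, so its level cannot be assigned to vessels in this tissue. Slco1c1, a thyroxine carrier that astrocytes make too, was at 18.6 and 16.9 TPM. Mfsd2a, the carrier of docosahexaenoic acid as lysophospholipid, had 15.4 TPM from 680 counts in replicate 2 and 20.0 TPM from 802 counts in replicate 1. Slco1a4, an organic anion carrier, was at 14.7 and 15.7 TPM, and the efflux pump gene Abcb1a at 6.85 and 7.11 TPM. Slco1a4 thus stood at 0.791 times Slco1c1 in replicate 2 and 0.928 times in replicate 1.

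Among surface antigens, Ly6c1 had 23.8 TPM in replicate 2 and 25.4 in replicate 1. Its relative Ly6a, which marks vessels in many mouse strains, was at 8.90 and 8.83 TPM. Both values are uncertain, because the family is near-identical in part: 57.3% of the 31-base words of the main Ly6c1 transcript and 22.2% of those of Ly6a also occur in transcripts of other genes, most often Ly6c2 for Ly6c1. The same share was 23.2% for Abcb1a, mostly with Abcb1b, 12.4% for Egfl7, with the overlapping gene Gm20532 that is listed at 0 counts, and 8.49% for Slco1a4. Of the 44 members, 39 shared under 5% of their words, and 29 shared none. Itm2a, a membrane protein enriched in barrier endothelium, was at 16.3 and 14.9 TPM, and the sialomucin Emcn at 2.32 and 2.50 TPM.

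Secreted proteins of the endothelium comprised Egfl7 and Vwf. Egfl7, a matrix protein of sprouting vessels, was the second-highest member at 31.9 TPM in replicate 2 and 29.4 in replicate 1. Mir126a, whose mature sequence is printed above, was listed at 0 counts in both libraries. A count of 0 allows up to 3 counts, and the quantification of total RNA does not count mature microRNAs by themselves. Vwf, the clotting glycoprotein that endothelial cells store, was at 6.33 and 5.38 TPM. The transcription factors were low in both libraries: Sox17, a factor of arterial endothelium, was at 3.30 and 3.27 TPM, and the ETS factor Erg at 1.82 and 1.88 TPM.

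Pericyte genes summed to more than contractile smooth muscle genes among the mural members, mainly through Vtn and Rgs5. The 7 pericyte genes summed to 53.7 TPM in replicate 2 and 55.2 in replicate 1, which was 4.91 and 5.54 times the sum of the 4 contractile genes. Their medians were closer, at 3.18 TPM for pericyte and 2.73 TPM for contractile genes. Vtn, which encodes vitronectin, a matrix protein made by brain pericytes, was at 25.2 and 24.3 TPM. Rgs5, a regulator of G-protein signalling in pericytes, had 14.2 TPM from 1269 counts in replicate 2 and 17.3 TPM from 1491 counts in replicate 1, so it was lower in replicate 2. Pdgfrb, the PDGF receptor that pericytes need, was at 6.10 and 5.39 TPM, and Notch3, the Notch receptor of mural cells, at 3.21 and 3.14 TPM. Anpep, an aminopeptidase of pericyte membranes that fibroblasts carry too, was at 1.87 and 1.91 TPM, Higd1b, a mitochondrial protein enriched in pericytes, at 1.81 and 1.83 TPM from 23 and 24 counts, and Abcc9, a potassium channel subunit, at 1.28 and 1.40 TPM.

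Contractile genes were low, and Cnn1 was the lowest of all members. Acta2, smooth muscle actin, was at 4.67 TPM in replicate 2 and 4.98 in replicate 1. Tagln, a second actin-binding protein of smooth muscle, was at 4.11 and 2.87 TPM, and Myh11, the smooth muscle myosin heavy chain, at 1.99 and 1.93 TPM. Cnn1 had 0.16 TPM from 7 counts and 0.18 TPM from 6 counts, so no more than its presence at a few reads can be stated.

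In the fibroblast class the basement membrane collagens stood above the fibrillar ones. Col4a1 was at 19.0 TPM in replicate 2 and 21.2 in replicate 1, and Col4a2, whose product joins the same trimer, at 17.7 and 21.9 TPM. Both chains are also made by endothelial cells and pericytes, so they are weak markers of fibroblasts. The ratio of Col4a1 to Col4a2, which share the start printed above, was 1.07 in replicate 2 and 0.968 in replicate 1, and 1.31 and 1.06 in the second quantification. These are ratios of gene totals over all transcripts, not of full-length transcripts. The chains of collagen I were at 3.97 and 3.92 TPM for Col1a1 and 5.16 and 4.47 TPM for Col1a2, with a ratio of 0.769 and 0.877. Col3a1, the chain of collagen III, was at 1.65 and 1.81 TPM.

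The small leucine-rich proteoglycans differed widely in level. Dcn, or decorin, which is also known from pyramidal neurons of mouse CA1, was at 18.45 TPM in replicate 2 and 18.9 in replicate 1 with 703 counts in both. Ogn, or osteoglycin, was at 1.89 and 2.15 TPM. Lum, or lumican, had 1.51 TPM from 82 counts in replicate 2 and 1.06 TPM from 56 counts in replicate 1. Of the solute carriers, Slc6a13, a GABA carrier of meningeal fibroblasts, had 4.35 TPM from 197 counts in replicate 2 and 3.39 TPM from 143 counts in replicate 1. Slc22a6 had 0.66 TPM from 59 counts and 0.90 TPM from 79 counts, so these carriers differed between the libraries in opposite directions.

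The libraries gave close values for most members. Ratios of replicate 2 over replicate 1 were taken for the 42 members with at least 50 expected counts in both libraries, among 13916 such genes, and Cnn1 and Higd1b fell below that minimum. On the log2 scale the median TPM ratio was 0.02 over the members and −0.04 over all such genes. The medians were 0.03 for 23 endothelial, 0.03 for 9 mural and −0.08 for 10 perivascular fibroblast genes. The SD of the log2 ratio was 0.21 over the members and 0.20 over all such genes. The fibroblast median was 0.08 in the second quantification, so its direction depended on the quantification.

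Of those 42 members, 4 were at least 25% higher in replicate 2 by TPM, beside 3.32% of all genes with that count. At the same fold in the other direction, 2 were at least 20% lower in replicate 2, beside 6.93%. The higher ones were Tagln (log2 ratio 0.52), Lum (0.51), Ocln (0.43) and Slc6a13 (0.36). The lower ones were Slc22a6 (−0.45) and Mfsd2a (−0.38). These counts of 4 and 2 are small, and members of every class were among them. None of the 42 was 2-fold apart, beside 0.273% of all such genes.

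Reads and TPM did not always give the same ratio. With counts scaled by TMM, 3 members were at least 25% higher, beside 2.67% of genes, and 2 were at least 20% lower, beside 2.62%. In the second quantification 2 were higher, beside 4.82%, and 3 were lower, beside 8.02%. Lum and Ocln were higher past that limit by all 3 measures, beside 0.941% of genes, and Slc22a6 was lower by all 3, beside 1.6%. These measures rest on the same reads. Tagln had 101 and 92 counts, a log2 read ratio of 0.14, and its effective length was 1063 bases in replicate 2 and 1427 bases in replicate 1. In the second quantification its TPM was 4.78 and 4.57. Anpep was the reverse case: its TPM was nearly equal, while its 65 and 93 counts gave a log2 read ratio of −0.51 with effective lengths of 1508 and 2170 bases. In 4 members, Tagln, Anpep, Slco1a4 and Cnn1, the TPM and read ratios were over 0.2 apart on the log2 scale, a limit chosen after the values were seen.

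Counting error alone was set against each read ratio by an exact binomial (Clopper-Pearson) 95% interval. It lay wholly above equality for 10 of the 42 members, 23.8%, beside 9.56% of all genes with that count, and wholly below for 5, 11.9%, beside 10.8%. The 10 comprised 7 endothelial genes (Ocln, Kdr, Egfl7, Cldn5, Slco1c1, Itm2a and Bsg), the mural gene Pdgfrb, and the fibroblast genes Lum and Slc6a13. The 5 were the endothelial gene Mfsd2a, the mural genes Rgs5 and Anpep, and the fibroblast genes Col4a1 and Col4a2. In the second quantification Col4a1, at 38.7 and 35.7 TPM, and Anpep, at 2.69 and 2.25 TPM, were instead higher in replicate 2. Mfsd2a, Rgs5 and Col4a2 stayed lower there. Ocln had the highest lower bound, with a log2 read ratio of 0.49 (0.26 to 0.72), and Col4a2 the lowest upper bound, at −0.28 (−0.35 to −0.20). The intervals of Tagln, 0.14 (−0.28 to 0.56), and Slc22a6, −0.42 (−0.93 to 0.09), included equality, although both genes passed the fold limit by TPM. These intervals leave out variation between animals and library preparations, so they do not show that the animals differ. The intervals of TPM that the authors deposited with each library did not overlap for Mfsd2a, Rgs5 and Col4a2, 3 of the 42 members, beside 5.92% of all such genes. For 2 of the 44 members, Bsg and Cnn1, the TPM itself lay outside its deposited interval.

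**Figure D2:**
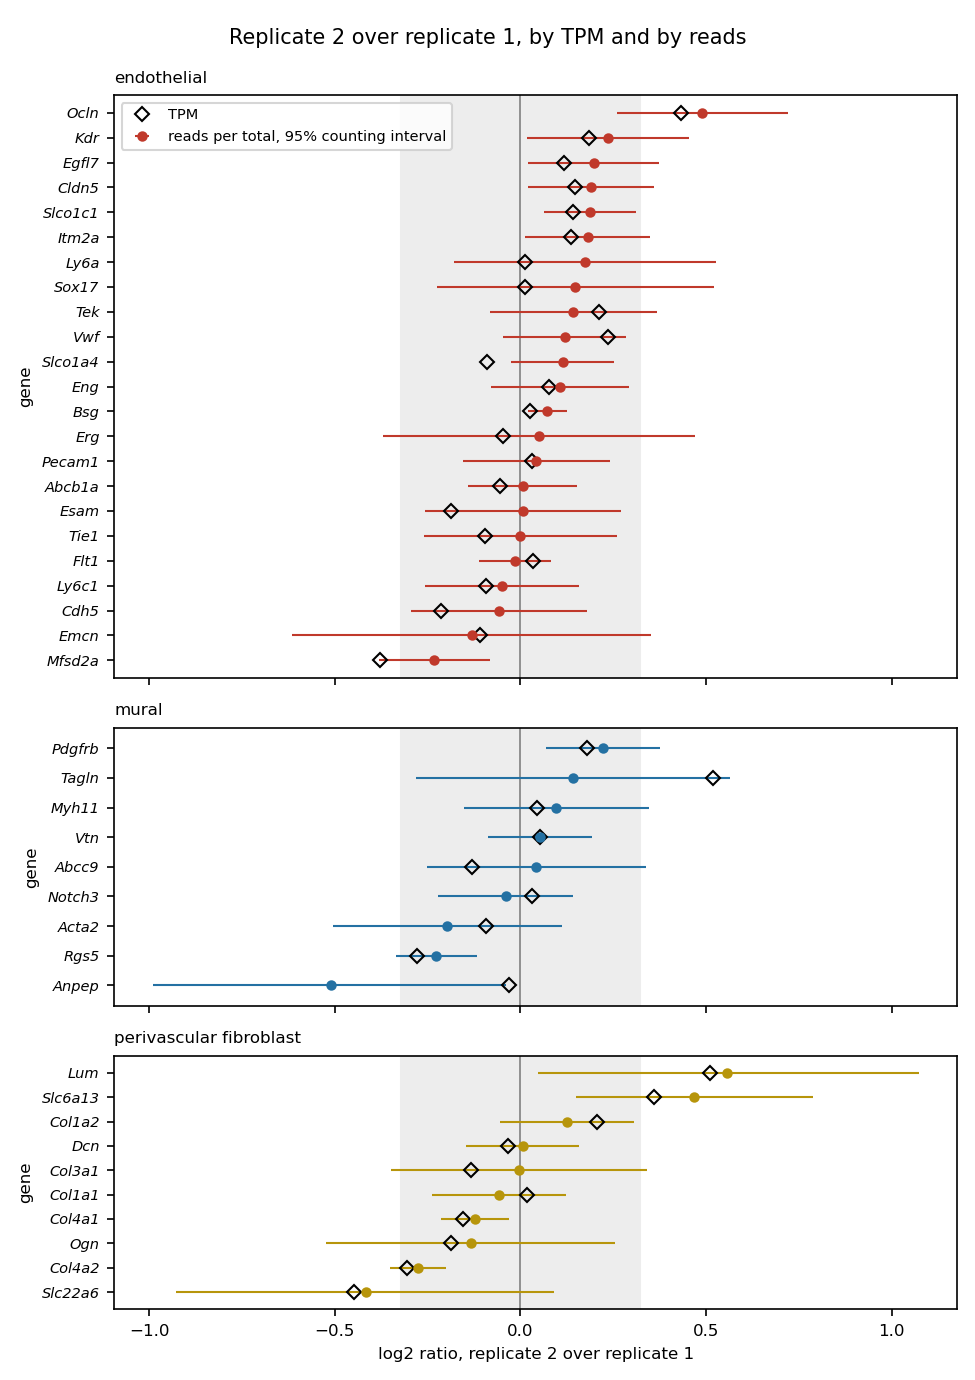
Log2 ratio of replicate 2 over replicate 1 for the 42 members with at least 50 counts in both libraries, by class; filled points are reads per library total with 95% counting intervals, diamonds are TPM, and the grey band runs from 20% lower to 25% higher. Most points lie inside the band, and the diamonds of Tagln, Anpep and Slco1a4 stand well away from their filled points.

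The 6 glutamatergic neuron genes were all detected and summed to 3589 TPM in replicate 2 and 3648 in replicate 1. Marker sums of other cells differed between the libraries in both directions. Oligodendrocyte genes summed to 902.8 TPM in replicate 2 and 1004.7 in replicate 1, those of their precursors to 82.75 and 88.87 TPM, and astrocyte genes to 1906 and 1953 TPM. Microglia genes summed to 140.1 and 134.5 TPM, and ependyma genes to 9.74 and 8.65 TPM. The 8 choroid plexus genes, of which 2 were detected, summed to 29.02 TPM in replicate 2 and 15.7 in replicate 1. Ttr, the thyroxine carrier of the choroid plexus, accounted for most of both sums at 23.1 and 10.6 TPM. Kl, the other detected gene, was level at 3.96 and 4.04 TPM. Of the 6 genes under 1 TPM, Otx2, Clic6, Folr1 and Kcne2 were higher in replicate 2, from 48 counts or fewer, and Aqp1 and Slc4a5 lower by TPM, from 12 counts or fewer. The 5 perivascular macrophage genes, of which 1 was detected, summed to 5.37 and 4.08 TPM. The detected gene Mrc1 was at 1.56 and 1.37 TPM, Cd163 lay the other way at 0.74 and 0.85 TPM, F13a1 was at 0.90 and 0.78 TPM, and Lyve1 at 0.65 and 0.27 TPM and Pf4 at 1.52 and 0.81 TPM rested on 37 counts or fewer. The 5 red blood cell genes, all detected, summed to 420.3 and 376.6 TPM. Leukocyte genes summed to 1.49 and 1.22 TPM with Cd3e and Ly6g at 0 counts, and 5 of the 7 genes of other organs were under 1 TPM in both libraries. The part of these cells in the ratios of Lum, Slc6a13, Ocln and the other members was not tested.

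Ligands and partners of the members' receptors covered a wide range of levels. Levels of these genes and of the lists below are those of the whole tissue, and the cells that made the RNA were not identified. Of the 10 VEGF and angiopoietin genes 5 were detected, led by the co-receptor gene Nrp1 at 37.2 TPM in replicate 2 and 43.0 in replicate 1 and by Vegfb at 35.5 and 34.7 TPM. Vegfa, the main ligand of Kdr, was at 25.1 and 31.1 TPM, which was 8.62 and 12.1 times Kdr. Angpt1, the activating ligand of Tek, was at 0.94 and 1.07 TPM, or 0.263 and 0.346 times Tek, and 2.69 and 2.38 times Angpt2. Angpt2 rested on 28 and 35 counts, and that ratio was 1.69 and 1.76 in the second quantification. Vegfc and Angpt2 were under 1 TPM in both libraries. Flt4, the lymphatic VEGF receptor, was at 0.77 and 1.05 TPM, the only gene of this list with at least 50 counts that was 20% lower or more, and none was 25% higher. By TMM-scaled counts its log2 ratio was −0.31, inside the limit.

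Of the 12 PDGF and TGF-beta genes 11 were detected, with a median of 5.16 TPM. Pdgfb, which endothelial cells send to pericytes and neurons make too, was at 12.5 TPM in replicate 2 and 11.2 in replicate 1, 2.05 and 2.07 times its receptor Pdgfrb. Pdgfa at 16.7 and 15.3 TPM, Pdgfra at 13.1 and 16.5 TPM and Tgfb2 at 12.9 and 14.4 TPM led the list, and Gdf2 was at 0.00 and 0.02 TPM. Bmp6 was at least 25% higher in replicate 2, at 2.34 and 1.78 TPM. Pdgfra and Acvrl1, a receptor of endothelial cells at 3.44 and 4.66 TPM, were at least 20% lower. By TMM-scaled counts the log2 ratio was −0.04 for Pdgfra and −0.27 for Acvrl1, inside that limit.

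All 12 Notch genes were detected, with a median of 6.90 TPM. The highest were Hey1, a Notch target, at 22.8 TPM in replicate 2 and 20.1 in replicate 1, the ligand gene Jag2 at 20.2 and 17.9 TPM and Notch1 at 11.03 and 13.3 TPM. Dll1 at 4.99 and 3.60 TPM and Heyl at 1.72 and 1.35 TPM were at least 25% higher, and Hes1 at 9.49 and 13.3 TPM was at least 20% lower. All 15 genes of the Wnt and beta-catenin list, a pathway that maintains the barrier, were detected, and none differed by as much. Ctnnb1, beta-catenin itself, was at 220.3 and 222.2 TPM, Lrp6, a Wnt co-receptor, at 20.1 and 20.0 TPM, and the ligand gene Wnt7b at 19.3 and 18.9 TPM, 2.66 and 2.58 times Wnt7a, and 4.46 and 3.80 times in the second quantification. The member Sox17 belongs to that list as well.

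Some other genes listed for the barrier stood above all members but Bsg, as levels of the whole tissue and not of vessels alone. Of 10 further tight junction genes measured 8 were detected, led by the scaffold gene Tjp1 at 47.7 TPM in replicate 2 and 57.6 in replicate 1, Jam3 at 12.5 and 14.8 TPM and Cldn12 at 11.5 and 13.02 TPM. None of the 8 was 25% higher or 20% lower, and Marveld2 and Marveld3 were under 1 TPM in both libraries. Of 14 further carriers 12 were detected with a median of 14.3 TPM, led by the amino acid carrier subunit Slc3a2 at 62.1 and 61.5 TPM, Slc39a10 at 41.6 and 43.8 TPM and the glucose carrier Slc2a1 at 32.1 and 38.5 TPM, followed closely by Lrp8 at 35.3 and 34.3 TPM. Slc38a5 was at least 20% lower at 2.28 and 3.11 TPM, but its log2 ratio was inside the limit with TMM scaling, at −0.22, as for the second quantification, at −0.20.

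Of 18 further endothelial genes 15 were detected, with S1pr1 at 36.4 TPM in replicate 2 and 37.8 in replicate 1, Pltp at 29.3 and 27.4 TPM and Ramp2 at 23.2 and 25.3 TPM as the highest. Robo4 at 2.79 and 1.99 TPM and Ctla2a at 6.66 and 4.79 TPM were at least 25% higher, and Ets1 at 3.66 and 4.97 TPM and Mmrn2 at 1.04 and 1.64 TPM at least 20% lower. By TMM-scaled counts the log2 ratio was 0.23 for Robo4 and 0.06 for Ets1, both inside the limit, and that of Robo4 was 0.28 in the second quantification. Sox7 and Tal1 were under 1 TPM in both libraries. The arterial list had 4 of 8 genes detected with a median of 1.45 TPM, led by Efnb2, Mgp and Unc5b, with Bmx, Gja5 and Gkn3 under 1 TPM in both libraries. The venous list had 6 of 7 detected with a median of 4.80 TPM. Its highest value, Ackr1 at 26.9 and 26.3 TPM, is uncertain, since the gene overlaps Cadm3 on the same strand by 493 bases and Cadm3 was at 152 and 164 TPM. Nr2f2, a venous identity factor, was at 16.7 and 19.8 TPM, Vcam1 at 7.57 and 7.54 TPM, and Lcn2 was under 1 TPM in both libraries.

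Genes of leaky or activated vessels were mostly near 0. Of 7 such genes 3 were detected: Plvap, which builds the diaphragms of fenestrae, at 3.26 TPM in replicate 2 and 2.97 in replicate 1, Apln at 4.31 and 4.97 TPM and Icam1 at 1.11 and 1.15 TPM. Esm1 and Aplnr were under 1 TPM, and the selectin genes Sele and Selp were listed at 0 counts in each library, where up to 3 counts cannot be told from 0.

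Of 18 further mural genes 13 were detected with a median of 2.04 TPM, led by Cald1 at 13.8 TPM in replicate 2 and 13.4 in replicate 1, Cspg4 at 6.71 and 7.51 TPM and Myl9 at 6.35 and 5.83 TPM. Cspg4 also marks oligodendrocyte precursors. Mcam was at least 25% higher at 5.23 and 4.13 TPM, and Smtn at 2.34 and 3.02 TPM and Atp13a5 at 3.23 and 4.27 TPM at least 20% lower, while Kcnj8, Des, Tbx18 and Lmod1 were under 1 TPM in both libraries. The direction of Mcam depended on the measure: its log2 ratio was 0.12 with TMM scaling, against −0.33 for the second quantification. That of Atp13a5 was −0.11 by TMM-scaled counts, inside the limit. Of 20 further fibroblast genes 17 were detected with a median of 2.69 TPM, led by Fn1 at 14.0 and 15.8 TPM, Pdgfra, which oligodendrocyte precursors express too, and Col6a1 at 6.77 and 9.43 TPM. Gjb2 was at least 25% higher at 3.36 and 2.54 TPM, and Pdgfra, Col6a1, Col6a2, Col15a1 and Fbln2 were at least 20% lower. By TMM-scaled counts only Col6a1 of these 5 was past the limit, with a log2 ratio of −0.41, against −0.04 for Pdgfra, −0.29 for Col6a2 and −0.04 for Col15a1. Fbln2 was 2-fold apart in TPM, at 2.18 and 4.38, while its 156 and 196 counts gave a TMM-scaled log2 ratio of −0.32. Slc47a1, Slc22a2 and Lox were under 1 TPM in both libraries.

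Of 17 further basement membrane genes 12 were detected, led by Sparc, a collagen-binding protein made by several brain cell types, at 111 TPM in replicate 2 and 117 in replicate 1, Agrn at 52.4 and 59.3 TPM and the laminin chain gene Lamb1 at 13.2 and 15.4 TPM. Beside the members Col4a1 and Col4a2, the other collagen IV chains were low, with Col4a5 at 1.16 and 1.05 TPM and Col4a3, Col4a4 and Col4a6 under 1 TPM in both libraries. Nid2 was 2-fold apart at 1.79 and 0.56 TPM, with 88 and 58 counts and a TMM-scaled log2 ratio of 0.61, and Lama1 and Nid1 were at least 20% lower by TPM but, at −0.17 and −0.29 on the log2 scale, not by TMM-scaled counts.

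**Figure D3:**
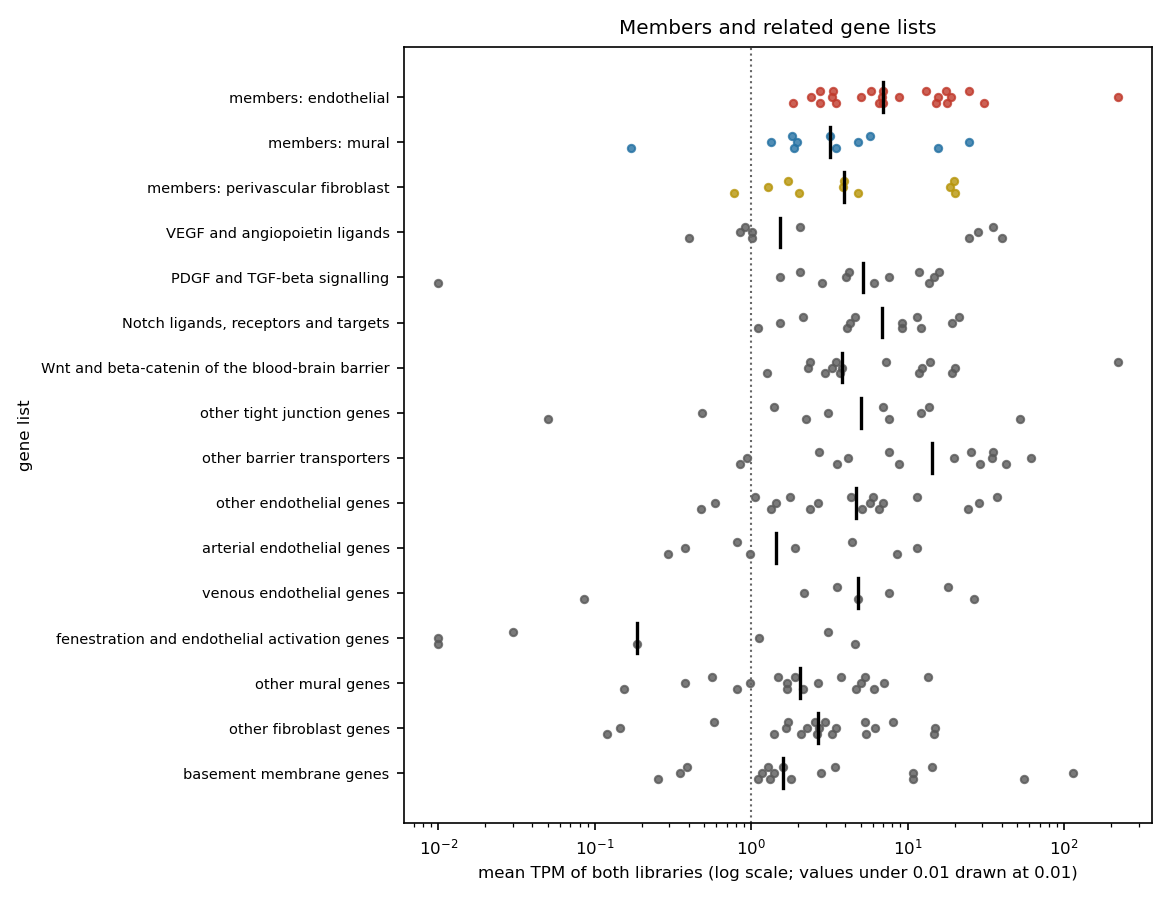
Mean TPM of both libraries on a log axis for the members by class and for 13 related gene lists; each point is a gene, black bars are list medians, and the dotted line marks 1 TPM. The median of the further barrier transporters, 14.3 TPM, lies to the right of those of the 3 member classes, and that of the fenestration and activation genes lies to the left of the line. All levels are those of the whole tissue.

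Which transcript carried a gene's level was stable for most members, as it was for most detected genes. Of the 38 detected members with several annotated transcripts, 28 had the same most abundant transcript in both libraries and both transcript quantifications, beside 65.5% of the 11997 detected genes with several transcripts. The 28 include Dcn, although the second quantification gave Dcn-201 and Dcn-202 equal shares. Protein-coding transcripts held 92.1% of the endothelial TPM in replicate 2 and 91.2% in replicate 1, 91.3% and 93.4% of the mural TPM, and 88.2% and 88.9% of the fibroblast TPM. Transcripts annotated for nonsense-mediated decay, the removal of messages with an early stop codon, held 8.38% and 7.36% of the fibroblast TPM and 2.93% and 3.21% of the endothelial TPM. Nearly all of the fibroblast part came from Col4a1 and most of the endothelial part from Slco1c1, so neither share describes its class. The endothelial share is also taken over a sum of which Bsg held 50.1%.

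The level of Flt1 was assigned mainly to transcripts of its membrane and soluble forms. Flt1-202, with 30 exons and 3999 coding bases, held 49.1% of the gene's TPM in replicate 2 and 56.4% in replicate 1, and 53.2% and 58.2% in the second quantification. The soluble form Flt1-203, with 13 exons and 2064 coding bases, held 30.3% in both libraries, and 33.2% and 32.2% in the second quantification. The share of the soluble form therefore lay within 30.3% and 33.2% over both libraries and both quantifications. The bases printed above after the shared exon begin with GT in Flt1-203, which reads on where Flt1-202 is spliced. Unspliced Flt1 RNA holds the same bases, and its part in the share of Flt1-203 was not tested.

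The main transcript of Slco1c1 was not annotated as coding for the full carrier. Slco1c1-202, annotated for nonsense-mediated decay, held 52.0% in replicate 2 and 62.4% in replicate 1, and 54.0% and 65.8% in the second quantification. The protein-coding transcripts together held 37.5% and 23.3%, and 23.6% and 15.1% in the second quantification. As the printed pair of sequences shows, Slco1c1-202 reaches its stop codon soon after the exon that starts 41 bases late. Col4a1 also had a sizeable part in transcripts annotated for decay, 32.8% in replicate 2 and 27.7% in replicate 1, and 35.1% and 30.2% in the second quantification. Its full-length Col4a1-201 held 33.7% and 36.0%, and the short Col4a1-203 of 545 bases 31.2% and 31.3%. By contrast, Col4a2-201 held 98.1% of the Col4a2 TPM as a mean of both libraries. The near-equal totals of both genes therefore do not carry over to these main transcripts.

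For Bsg and Dcn the quantifications gave different answers. Bsg-205 held 92.8% of the Bsg TPM in replicate 2 and 81.8% in replicate 1, but 63.3% and 36.2% in the second quantification. Bsg-201, with the extra exon printed above and known for its long form in retina, held 2.0% and 2.4%, and 35.6% and 37.8% in the second quantification. Its share in hippocampus is thus not settled by these files. Dcn-201 held 99.0% and 97.4% of the Dcn TPM, against 49.4% and 49.6% in the second quantification, which gave equal shares to Dcn-202. Both Dcn transcripts are 1758 bases long and share their last 1580 bases, so few reads can tell them apart.

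Most other shares that pass the naming rule moved with the library or the quantification. Mfsd2a-201 held 91.7% in replicate 2 and 84.0% in replicate 1, Esam-201 86.5% and 74.3%, and Vtn-201 82.5% and 86.9%. Pdgfrb-201 held 100% and 87.8%, Ocln-205 67.3% and 54.2%, and Slco1a4-203 58.6% and 49.97%. Vwf-203, the full-length form with 52 exons, held 38.4% and 44.6%, but 70.3% and 69.3% in the second quantification. Egfl7 was spread over 19 transcripts, with retained-intron transcripts at 32.8% and 40.3% together. In Eng the highest transcript was Eng-202 at 41.0% in replicate 2 but Eng-201 at 53.8% in replicate 1. The order also changed for Ly6c1 between the libraries, and for Ly6a and Pecam1 between the quantifications. The shares of Ly6c1 and Ly6a rest on genes that share words with their relatives.

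**Figure D4:**
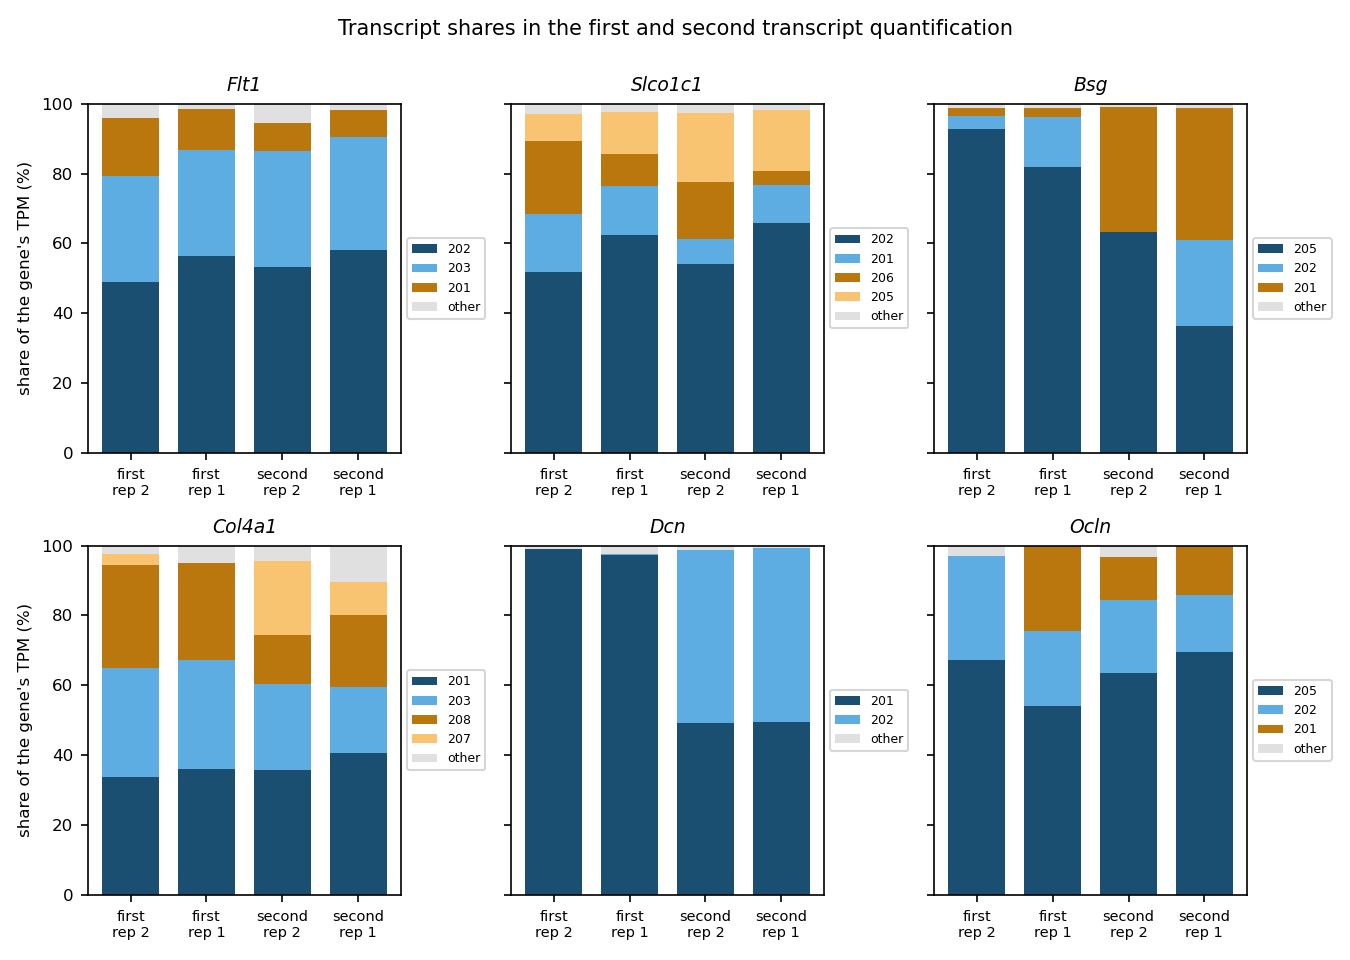
Share of each gene's TPM in its transcripts, as stacked bars, for 6 members; the bars are replicate 2 and replicate 1 of the first and then of the second transcript quantification, labels give the transcript numbers, and grey is all others. The part of Flt1-203 stays between 30.3% and 33.2%, whereas those of Bsg and Dcn change from the first quantification to the second.

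Mean levels of all 44 members were higher in the second quantification. The ratio of the second mean TPM to the first had a median of 1.62 over the members and of 1.69 over detected nuclear protein-coding genes. It ranged from 1.01 for Vwf to 2.16 for Slc6a13. Cnn1, at 0.177 TPM in replicate 2 and 0.53 in replicate 1, remained under 1 TPM there, while Slc22a6 was at 1.09 and 1.43 TPM.

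**Figure D5:**
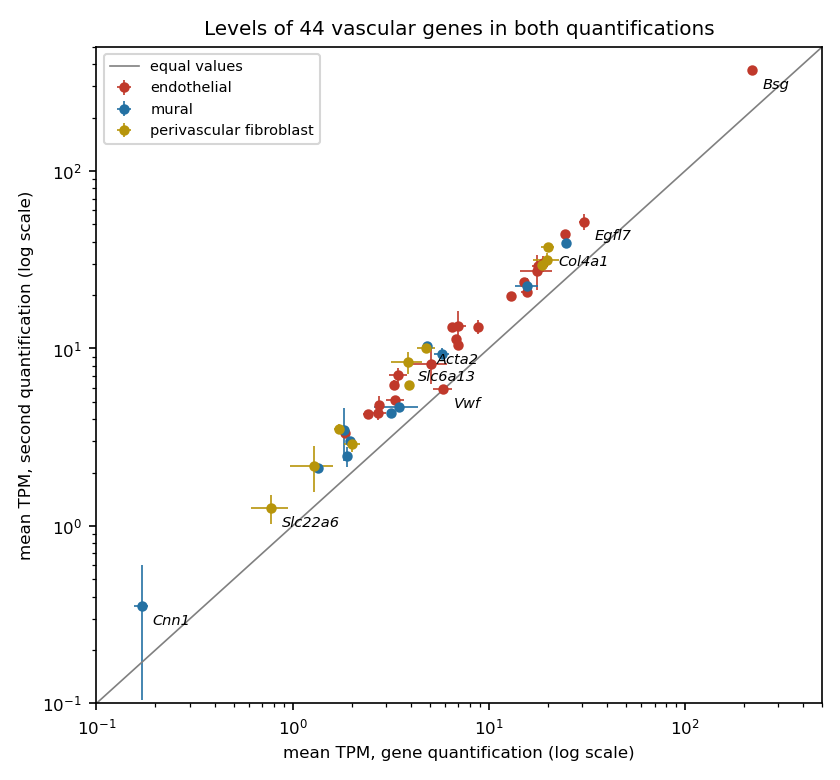
Mean TPM of each member in the gene quantification (x) and in the second quantification (y), both on log axes, coloured by class, with bars of 1 SD (n = 2) and a line of equal values. Every member lies on or above the line, with Vwf on it and Slc6a13 and Acta2 among the farthest from it.

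Overlapping annotation touched 15 of the 44 members, and for 7 of them an overlapping gene lies on the same strand. On the opposite strand, Tagln shares 108 bases with Pcsk7, which was at 9.67 TPM in replicate 2 and 10.2 in replicate 1. Gm48529 overlaps Tagln by 3627 bases and was at 1.27 and 0.70 TPM. Ogn lies within Cenpp, which was at 0.60 and 0.68 TPM. The files list signal tracks for each strand, but no source used here states whether strand was used in counting, so reads of these pairs may be mixed.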

How the data were processed

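Total RNA-seq of mouse hippocampus was taken from 2 libraries of 1 group. Per the deposited listings, the authors made the gene and first transcript tables from reads aligned to transcripts and a second transcript table directly from reads, both on mm10 with GENCODE M21. Column layouts are those of RSEM and kallisto per the file headers, and in the sources used here no versions were given. The deposited expected count is an estimated number of reads and need not be whole. The deposited TPM is scaled over all entries, of which nuclear protein-coding genes held 412110 in replicate 2 and 420598 in replicate 1. The genome is that of C57BL/6J, and losses of CAST/EiJ reads were not measured.

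The second quantification was summed per gene. Ratios and TMM used the annotated genes alone, with totals of 31143046 in replicate 2 and 31268471 in replicate 1. Expected counts were rounded for exact binomial (Clopper-Pearson) 95% intervals of read ratios, which cover counting error only. TMM factors came from edgeR 4.0.16 under R 4.3.3, and other values from Python 3.11.15 with pandas 2.3.3 and scipy 1.17.1. Ratio and interval were tested on simulated data with counting error only, so that test does not cover the wider spread between these libraries. Genes sharing sequence were sought by 31-base words of each member's main transcript. Named genes were all members, the 3 highest of each other list, those under 1 TPM, and those 25% higher or 20% lower with at least 50 counts in both libraries, and for isoforms members of at least 5 TPM with 2 or more transcripts over 10%. Lrp8, Vegfa, Angpt1 and other partners of members, Col4a5 and the isoform pairs with printed sequences were picked with values known. Members and lists were chosen with earlier results of these data known. Cldn25 of the tight junction list was not analysed here.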

Additional observations from a re-analysis of the deposited data

How the results depend on the processing

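No paired analysis was possible because both libraries belong to 1 group. Class levels depended on the scaling of TPM. Rescaled to nuclear protein-coding genes, the medians were 16.8, 7.63 and 9.39 TPM for endothelial, mural and perivascular fibroblast genes, and the sums 1060, 156 and 185 TPM. In the second quantification the medians were 13.1, 4.35 and 7.32 TPM and the sums 728, 102 and 133 TPM. Endothelial, then fibroblast, then mural was the order of medians and sums in both settings. Without Col4a1 and Col4a2 the sum of the other 8 fibroblast genes, 37.1 TPM, and their median, 2.945 TPM, fell below the mural ones. In the second quantification that median was 4.89 TPM, above the mural 4.35 TPM. Without Dcn as well, the median of the other 7 was 2.02 TPM, and 3.53 TPM in the second quantification, below the mural median in each. At a detection level of 2 TPM, 6 mural and 34 of all members passed, and at 0.5 TPM 43 did. In the second quantification 2 members were at least 25% higher, against 4. With either library left out, the medians ranged from 6.85 to 7.11 TPM (endothelial), 2.87 to 3.21 TPM (mural) and 3.65 to 4.16 TPM (fibroblast), and the sums from 438.15 to 444.67, 64.6 to 65.2 and 74.35 to 79.6 TPM. The number detected was 42 either way. None of the 6 members 25% higher or 20% lower by TPM changed direction under TMM-scaled counts or in the second quantification. Among all 42 members with at least 50 counts, 10 differed in direction between TPM and TMM-scaled counts, none of them past the limit by either. In the second quantification others changed direction too, such as Col4a1, with a log2 ratio of −0.16 by TPM and 0.12 there. Depth limits Cnn1 and Higd1b, with under 50 counts, and with 1 library on each side no ratio has a replicate check.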
